A study of Mus musculus with 13 samples.

Results

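Genes of fatty acid oxidation and peroxisomes were followed in mouse epididymal fat. The set had 35 genes: the carnitine shuttle, the enzymes of mitochondrial β-oxidation, the proteins that take electrons from it, and the enzymes, transporters and assembly factors (peroxins) of peroxisomes. A gene was measured where an array probe set carried its symbol and no other, and where several did, the brightest by its mean over the arrays was used. This gave values for 33 of the 35 genes, out of 18818 genes measured. The probe set of Acadvl also carried the symbol Dvl2, and that of Cpt1b carried Gm44502, so neither gene has a value here. Hadhb and Acox3 had more than 1 probe set.

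The arrays came from male mice, 6.5 weeks old, that were given a high fat diet for 4 days from the age of 6 weeks. There were 4 arrays of wild type (WT) fat after α-galactosylceramide (αGalCer), 3 of WT fat after vehicle, 3 of CD1d knockout (KO) fat after αGalCer, and 3 of KO fat after vehicle. αGalCer is a glycolipid that the antigen-presenting molecule CD1d shows to natural killer T cells. It was injected into the peritoneum at 100 ng per g of body weight on days 0 and 2, and the vehicle was pyridine. All 4 groups thus had the same diet and the same number of injections, and no group on ordinary chow was used here. Per the labels, WT mice were C57/BL6 and KO mice were the strain B6.129S6-Cd1d1/Cd1d2tm1spb/J, which lacks CD1d in every cell. The labels give C57Bl/6J as the background strain, and the mice were bred in the submitters' facility. The question of the design was which responses of fat to αGalCer need CD1d.

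β-oxidation shortens fatty acids by a pair of carbons in each round. Long chains enter mitochondria as carnitine esters, and each round then runs through a dehydrogenase, a hydratase, a second dehydrogenase and a thiolase, with electrons passed to the respiratory chain by electron transfer flavoprotein. Peroxisomes, which peroxins build, begin the oxidation of very long and branched chains, produce hydrogen peroxide and destroy it with catalase. In many tissues the nuclear receptors PPARα and PPARγ and the coactivator PGC-1α act on these genes. PPARs bind DNA with RXR at repeats of the half-site AGGTCA.

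Upstream sequence was examined because genes of this kind are well-known PPAR targets. RefSeq promoter windows of the assembly GRCm38.p6, which run from 250 bases before to 50 bases after the start of a gene, were matched by symbol for 27 of the 33 genes. The half-site AGGTCA was searched on both strands, and a gene was counted where any of its windows held it. It was present in 5 of the 27 genes (18.5%), against 2415 of all 14749 genes with windows (16.4%). The full repeat AGGNCANAGGNCA, which contains variants of the half-site, was present in 0 of 27, against 60 of 14749 (0.407%). The letters TNAAGGTCA, an extended half-site, were present in 0 of 27, against 170 of 14749 (1.15%). Sequences this rare would seldom appear in the windows of 27 genes, so these counts of 0 decide nothing. Sequence outside the windows was not searched. The letters GCGCANGCGC of the factor NRF1 were present in the windows of Etfdh, Abcd3 and Etfb, which makes 3 of 27 (11.1%), against 1173 of 14749 (7.95%). The share of the 27 genes with the half-site thus lay close to that of all genes, and a match is not evidence of binding. The half-site of Phyh lay after the start of the gene, and the other 4 follow with up to 25 bases on either side, on the strand of the gene, 5′ to 3′. Capitals mark the half-site, which reads TGACCT where it lies on the other strand. They are shown so that they can be set beside the changes of the same genes.
Acadm: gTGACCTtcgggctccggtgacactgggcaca
Cat: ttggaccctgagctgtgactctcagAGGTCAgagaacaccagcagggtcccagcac
Cpt1a: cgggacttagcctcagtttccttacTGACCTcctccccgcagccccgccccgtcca
Echs1: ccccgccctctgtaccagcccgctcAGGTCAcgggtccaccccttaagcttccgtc
In this assembly the window of Acadm is chr3:153944862-153944893 on the minus strand, with the half-site beginning 249 bases before the start. That of Cat is chr2:103485327-103485382 on the minus strand, 204 bases before the start. That of Cpt1a is chr19:3323182-3323237 on the plus strand, 94 bases before the start, and that of Echs1 is chr7:140116474-140116529 on the minus strand, 83 bases before it. Of the 4 genes, Acadm, Cat and Echs1 were lower after αGalCer in WT fat and Cpt1a was the only one of the 33 that was called higher.

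Values are log2 expression after RMA normalization, so a difference of 1 is a 2-fold change, and values of different genes are not compared. Array medians lay between 5.68 and 5.83. Adipoq, the adipocyte hormone adiponectin, averaged 10.63 ± 0.61 in WT αGalCer fat and 12.13 ± 0.14 in WT vehicle fat (SD, n = 4 and n = 3). It averaged 12.37 ± 0.03 and 12.37 ± 0.10 in KO αGalCer and KO vehicle fat (SD, n = 3 each). Signal of this adipocyte gene was thus present in every group and lowest in WT αGalCer fat. Cd1d1, the targeted gene, averaged 3.14 ± 0.47 in KO αGalCer fat against 9.63 ± 0.40 in WT αGalCer fat, and 3.73 ± 0.29 in KO vehicle fat against 10.69 ± 0.15 in WT vehicle fat. Some arrays stood apart by other tissues. The mean log2 level of 19 skeletal muscle genes was 8.30 in KO αGalCer replicate 3, and 8.08 and 6.67 in KO vehicle replicates 1 and 2, against 5.31 to 5.93 in the other arrays. The mean of 19 genes of ciliated and ductal epithelium was 7.59 in KO vehicle replicate 1 and 6.74 and 6.79 in WT vehicle replicates 1 and 3, against 5.15 to 5.35 in the 7 αGalCer arrays and 5.47 to 6.15 in the other 3 vehicle arrays. The counts of the 33 genes called are given with and without each of these sets of 3 arrays, while marker lists and related lists are given with all arrays. Genes of epididymis and testis averaged 5.07 in WT vehicle replicate 3, against 3.80 to 4.11 in the other arrays.

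In WT fat, nearly the whole set was lower after αGalCer. Of 33 genes, 29 were called lower (adjusted p under 0.05) and 1 was called higher, where 22.0% of all genes tested were lower and 19.8% were higher. In 30 genes every αGalCer array lay below every vehicle array, against 25.0% of all genes. The fall was at least 2-fold in 8 genes (Ehhadh, Acadm, Hadh, Abcd2, Cpt2, Decr1, Echs1 and Eci1), against 7.52% of all genes. The median change of the 33 genes was -0.80, beside -0.02 for all genes. Mitochondrial genes numbered 17 lower and 1 higher of 19, with a median of -0.65, and peroxisomal genes 12 lower of 14, with a median of -0.85. In bulk tissue, fewer cells of a type and less RNA per cell cannot be told apart. Nothing in the labels says that each replicate array came from its own mouse. The p-values set group differences against the spread among replicate arrays, and that spread may be technical. Without the 3 KO arrays high in muscle genes 30 were lower and 0 higher, and without the 3 vehicle arrays high in epithelium genes 29 were lower and 0 higher. The first of these fits removes no WT array, so it kept every change in WT fat and altered only the estimate of spread. It is thus no check of these changes against muscle. The second of these fits keeps 1 WT vehicle array, which is assumed to vary like the other groups. Without WT vehicle replicate 3 alone 29 were lower and 0 higher.

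**Figure D1:**
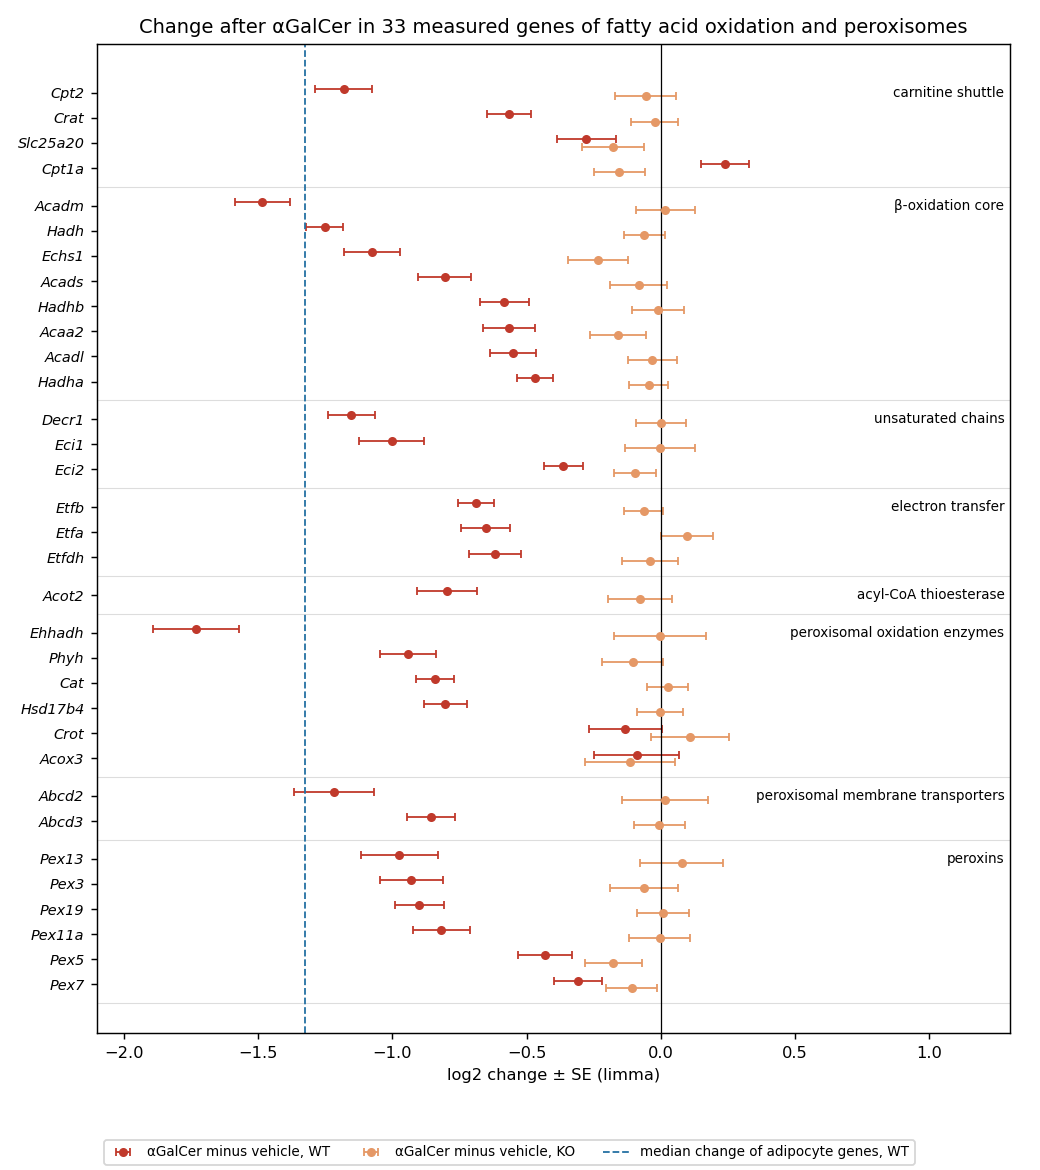
Log2 change after αGalCer (αGalCer minus vehicle, horizontal axis) of the 33 measured genes, grouped by role, in WT fat (red) and KO fat (orange), with bars for the standard error of the limma model and a dashed line at the median change of the adipocyte genes in WT fat. Red points lie left of 0 for every gene except Cpt1a, and orange points lie between -0.23 and 0.11.

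The plot of changes by role gives this contrast beside the one in KO fat. The carnitine shuttle moved unevenly. Cpt2 encodes the carnitine palmitoyltransferase of the inner mitochondrial membrane, which turns acyl-carnitine back into acyl-CoA. Its log2 values were 8.95, 8.61, 8.94 and 8.87 in WT αGalCer fat, against 10.06, 10.05 and 9.95 in WT vehicle fat. Every αGalCer array was lower by more than 1, a change of -1.18 ± 0.11 (SE, adjusted p = 1.56e-06). Crat, carnitine acetyltransferase, had 10.82, 10.70, 10.85 and 10.62 in WT αGalCer fat, against 11.34, 11.35 and 11.25 in WT vehicle fat, and fell by 0.56 ± 0.08 (adjusted p = 9.52e-05). Slc25a20, the carrier that exchanges acyl-carnitine for carnitine across the inner membrane, had 8.60, 8.58, 8.43 and 8.26 in WT αGalCer fat, against 8.75, 8.68 and 8.80 in WT vehicle fat. Its groups did not overlap, but the change of -0.28 ± 0.11 was not called (adjusted p = 0.0588). It was called under 6 of 24 other settings, among them the one without WT αGalCer replicate 1 and the one without KO vehicle replicate 1.

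Cpt1a, which makes acyl-carnitine at the outer membrane and is the step that malonyl-CoA inhibits, was the gene that went the other way. It had 10.71, 10.88, 10.83 and 10.59 in WT αGalCer fat, against 10.63, 10.55 and 10.36 in WT vehicle fat. The groups overlapped, since αGalCer replicate 4 lay below vehicle replicate 1. The change was 0.24 ± 0.09 (adjusted p = 0.0467), a 1.18-fold rise with a 95% interval from 0.05 to 0.43. This call was lost under 15 of 24 other settings, over which the change ran from 0.16 to 0.30 and the adjusted p from 0.0142 to 0.248. It was lost when any 1 of 9 of the 13 arrays was left out: WT αGalCer replicates 1 to 3, WT vehicle replicates 2 and 3, KO αGalCer replicates 1 to 3 and KO vehicle replicate 2.

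All 8 measured genes of the β-oxidation core were called lower, by 0.47 to 1.49. Acadm encodes the medium-chain acyl-CoA dehydrogenase, which starts each round on chains of medium length. It had 9.99, 9.78, 10.24 and 9.96 in WT αGalCer fat, against 11.46, 11.48 and 11.49 in WT vehicle fat. The vehicle arrays were nearly identical and each αGalCer array was lower by more than 1, a change of -1.49 ± 0.10 (SE, adjusted p = 2.31e-07) or 2.80-fold. Hadh, which carries out the second dehydrogenation on short and medium chains, had 10.89, 10.75, 11.05 and 10.90 in WT αGalCer fat, against 12.17, 12.15 and 12.13 in WT vehicle fat. It changed by -1.25 ± 0.07 (adjusted p = 7.47e-08), the smallest adjusted p of the 33 genes. Echs1, the enoyl-CoA hydratase for short chains, had 9.36, 8.97, 9.22 and 9.18 in WT αGalCer fat, against 10.24, 10.34 and 10.21 in WT vehicle fat. Its change was -1.08 ± 0.11 (adjusted p = 3.16e-06), and its 4 αGalCer arrays all lay below the vehicle arrays.

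The other core genes had changes nearer 0 on the log2 scale. Acads, for short chains, fell by 0.81 ± 0.10 (adjusted p = 2.26e-05), with 8.63 to 8.88 in WT αGalCer fat and 9.53 to 9.58 in WT vehicle fat. Acadl, for long chains, fell by 0.55 ± 0.09 (adjusted p = 0.000161), with 9.32 to 9.46 in WT αGalCer fat and 9.84 to 10.02 in WT vehicle fat. Hadha and Hadhb are the 2 subunits of the trifunctional protein, which carries out the last steps of a round on long chains at the inner membrane. Hadha fell by 0.47 ± 0.07 (adjusted p = 8.09e-05), with 10.34 to 10.46 in WT αGalCer fat and 10.87 to 10.89 in WT vehicle fat. Hadhb fell by 0.58 ± 0.09 (adjusted p = 0.000165), and its other probe set fell by 0.58 too. The fall of Hadhb was thus similar by both probe sets, which carry the same symbol and correlated across the 13 arrays with r = 0.998. Whether each matches the RNA of Hadhb alone was not checked. Acaa2, the thiolase that cuts off acetyl-CoA, fell by 0.57 ± 0.10 (adjusted p = 0.000408), with 9.96 to 10.38 in WT αGalCer fat and 10.69 to 10.77 in WT vehicle fat.

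The 3 auxiliary enzymes that make unsaturated chains fit for β-oxidation were all called lower. Decr1, the mitochondrial 2,4-dienoyl-CoA reductase, had 8.61, 8.29, 8.55 and 8.54 in WT αGalCer fat, against 9.63, 9.62 and 9.70 in WT vehicle fat. Its change was -1.15 ± 0.09 (SE, adjusted p = 4.22e-07), and the groups did not overlap. Eci1, the mitochondrial enoyl-CoA isomerase, had 8.64, 8.10, 8.45 and 8.53 in WT αGalCer fat, against 9.47, 9.40 and 9.42 in WT vehicle fat, and changed by -1.0 ± 0.12 (adjusted p = 1.94e-05). Eci2, a second isomerase found in both organelles, had 8.18, 8.23, 8.27 and 8.10 in WT αGalCer fat, against 8.51, 8.61 and 8.55 in WT vehicle fat, and changed by -0.36 ± 0.07 (adjusted p = 0.00121). Its groups did not overlap, though its change was the smallest of the 3.

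The 3 proteins that carry electrons away from the acyl-CoA dehydrogenases fell by similar amounts. Etfa and Etfb are the subunits of electron transfer flavoprotein, and Etfdh passes their electrons to ubiquinone. Etfb fell by 0.69 ± 0.07 (adjusted p = 3.52e-06), with 11.07 to 11.24 in WT αGalCer fat and 11.77 to 11.94 in WT vehicle fat. Etfa fell by 0.65 ± 0.09 (adjusted p = 6.69e-05), with 8.68 to 8.86 in WT αGalCer fat and 9.38 to 9.48 in WT vehicle fat. Etfdh fell by 0.62 ± 0.10 (adjusted p = 0.000175), with 8.60 to 9.02 in WT αGalCer fat and 9.36 to 9.54 in WT vehicle fat. In all 3 the groups did not overlap. Acot2, a mitochondrial thioesterase that frees fatty acids from CoA, had 9.89, 9.92, 9.69 and 9.55 in WT αGalCer fat, against 10.75, 10.46 and 10.48 in WT vehicle fat, and changed by -0.80 ± 0.11 (adjusted p = 6.53e-05).

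Of 6 peroxisomal oxidation enzymes 4 were called lower, and the set held both the strongest fall and the smallest change. Ehhadh, the peroxisomal bifunctional enzyme with hydratase and dehydrogenase activity, had 6.82, 6.45, 7.10 and 6.67 in WT αGalCer fat, against 8.49, 8.56 and 8.43 in WT vehicle fat. Every αGalCer array was lower by more than 1, a change of -1.73 ± 0.16 (SE, adjusted p = 1.99e-06) or 3.32-fold, the largest of the 33 genes. Hsd17b4, the other bifunctional enzyme, which acts on branched and very long chains, had 9.08, 9.12, 9.19 and 9.13 in WT αGalCer fat, against 9.95, 9.91 and 9.94 in WT vehicle fat, and changed by -0.80 ± 0.08 (adjusted p = 3.75e-06). Phyh, which begins the breakdown of phytanic acid, had 9.27, 8.75, 9.03 and 9.20 in WT αGalCer fat, against 10.04, 9.99 and 9.97 in WT vehicle fat, and changed by -0.94 ± 0.11 (adjusted p = 1.01e-05). Cat, catalase, had 11.63, 11.55, 11.87 and 11.66 in WT αGalCer fat, against 12.46, 12.57 and 12.54 in WT vehicle fat. Its change was -0.84 ± 0.07 (adjusted p = 1.05e-06), with no overlap.

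Crot and Acox3 were not called. Crot, which makes carnitine esters of shortened chains so that they can leave the peroxisome, had 8.96, 9.11, 9.18 and 9.01 in WT αGalCer fat, against 9.14, 9.18 and 9.27 in WT vehicle fat. These groups overlapped, and the change was -0.13 ± 0.14 (SE, adjusted p = 0.497, 95% interval -0.43 to 0.16). Acox3, an acyl-CoA oxidase for branched chains, had 8.52, 8.67, 8.66 and 8.36 in WT αGalCer fat, against 8.54, 8.48 and 8.91 in WT vehicle fat. Its groups overlapped, and the change was -0.09 ± 0.16 (adjusted p = 0.703, 95% interval -0.43 to 0.25). Both intervals leave room for a fall of the size seen in Eci2.

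Both membrane transporters fell. Abcd2 and Abcd3 carry acyl-CoA into peroxisomes, Abcd2 with a preference for very long chains and Abcd3 with one for branched and dicarboxylic acids. Abcd2 had 10.30, 10.06, 10.74 and 10.55 in WT αGalCer fat, against 11.52, 11.67 and 11.70 in WT vehicle fat. The αGalCer arrays were lower without overlap but spread more than those of any other of the 33 genes (SD 0.297), and the change was -1.22 ± 0.15 (SE, adjusted p = 2.23e-05). Abcd3 had 8.34, 8.68, 8.57 and 8.49 in WT αGalCer fat, against 9.34, 9.34 and 9.45 in WT vehicle fat, and changed by -0.85 ± 0.09 (adjusted p = 5.70e-06).

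All 6 peroxins were called lower. Pex13, part of the docking complex through which proteins enter the organelle, had 7.92, 8.23, 8.49 and 8.23 in WT αGalCer fat, against 9.21, 9.30 and 9.07 in WT vehicle fat, and changed by -0.97 ± 0.14 (SE, adjusted p = 0.000103). Pex3 and Pex19, which together insert membrane proteins, changed by -0.93 ± 0.12 (adjusted p = 3.09e-05) and -0.90 ± 0.09 (adjusted p = 3.96e-06). Pex11a, which helps peroxisomes divide, had 9.05, 8.70, 8.92 and 8.99 in WT αGalCer fat, against 9.82, 9.87 and 9.52 in WT vehicle fat, and changed by -0.82 ± 0.11 (adjusted p = 3.39e-05). The receptors that carry enzymes to the pore had changes nearer 0, though changes were not tested between genes. Pex5, the receptor for most enzymes, fell by 0.43 ± 0.10 (adjusted p = 0.00331), with 6.92 to 7.15 in WT αGalCer fat and 7.44 to 7.45 in WT vehicle fat. Pex7, the receptor for a second, smaller class that includes the thiolase and Phyh, had 7.04, 6.89, 6.96 and 6.95 in WT αGalCer fat, against 7.17, 7.40 and 7.25 in WT vehicle fat. Its change of -0.31 ± 0.09 (adjusted p = 0.0141) was not called without WT vehicle replicate 2 (-0.25, adjusted p = 0.0759).

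**Figure D2:**
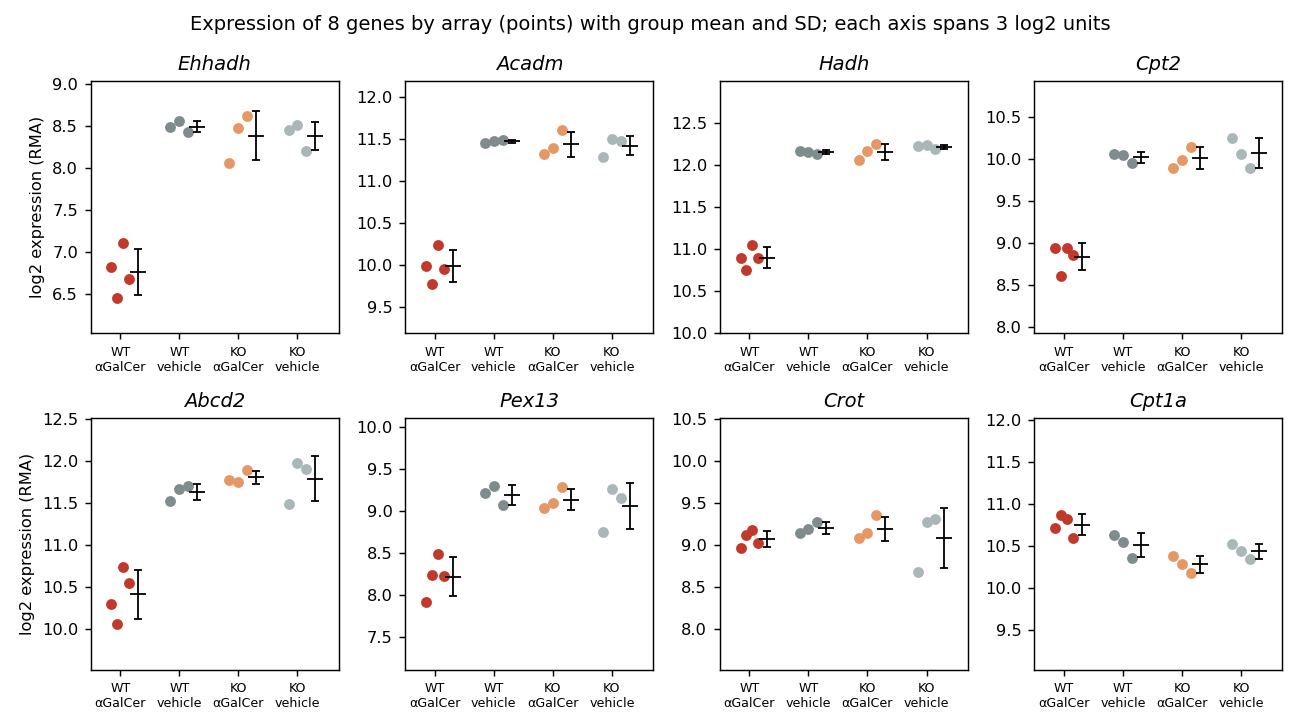
Log2 expression (vertical axis, 3 units in every panel) of 8 of the genes in each array (points), by group, with the group mean and SD beside the points. In Ehhadh, Acadm, Hadh, Cpt2, Abcd2 and Pex13 the 4 WT αGalCer arrays lie below every other array, whereas in Crot and Cpt1a they overlap the WT vehicle arrays.

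The arrays of WT αGalCer fat differed among themselves more than those of WT vehicle fat. The median SD over the 33 genes was 0.143 in WT αGalCer fat, 0.0633 in WT vehicle fat, 0.0976 in KO αGalCer fat and 0.137 in KO vehicle fat. WT αGalCer replicate 2 held the lowest value of 15 genes and replicate 4 that of 13, while replicate 3 held the highest value of 16. The mean over the 33 genes was 9.11 to 9.28 in WT αGalCer fat, 9.93 to 9.95 in WT vehicle fat, 9.80 to 9.97 in KO αGalCer fat and 9.87 to 9.96 in KO vehicle fat. In KO αGalCer fat, replicate 1 held the lowest value of 27 genes and replicate 3, which was high in muscle genes, the highest of 26. In KO vehicle fat, replicate 1, high in muscle and epithelium genes, held the highest value of 16 genes and the lowest of 13. The part of muscle and epithelium in these orders was not tested.

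Markers of cell types moved too, those of adipocytes down like the set and those of macrophages, T and NK cells up. All 25 measured adipocyte genes were called lower in WT fat after αGalCer, with a median of -1.33. The mean level of this list was 9.69 to 10.37 in WT αGalCer fat and 11.47 to 11.59 in WT vehicle fat, and it was 11.58 to 11.66 in KO αGalCer fat and 11.56 to 11.64 in KO vehicle fat. Its changes ran from -3.04 for Pck1, which makes glycerol for triglyceride, and -2.66 for Slc2a4, the insulin-responsive glucose transporter, to -0.73 for Cd36, the fatty acid transporter, and -0.53 for Cidea, a lipid droplet protein. Of the 33 genes, 2 had changes below the adipocyte median (Ehhadh and Acadm), 30 had changes between that median and 0, and Cpt1a lay above 0. Macrophage genes were called higher in 19 of 20, with a median of 1.72, from 3.60 for the Fc receptor Fcgr1 and 3.35 for the scavenger receptor Msr1 to 0.40 for the lysozyme gene Lyz2 and 0.13 for the receptor kinase Mertk, which was not called. The mean level of the macrophage list was 10.72 to 10.90 in WT αGalCer fat, 8.51 to 9.29 in WT vehicle fat, 9.21 to 9.66 in KO αGalCer fat and 8.98 to 9.10 in KO vehicle fat. T and NK cell genes were called higher in 12 of 12 and endothelial genes lower in 11 of 12. Of all genes tested, 22.0% were lower and 19.8% higher in WT fat. Genes of ciliated and ductal epithelium were called lower in 10 of 19 in WT fat, with a median of -0.84, and in 0 of 19 in KO fat, with a median of -0.90. The part of these cell types in the changes of the 33 genes was not tested.

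**Figure D3:**
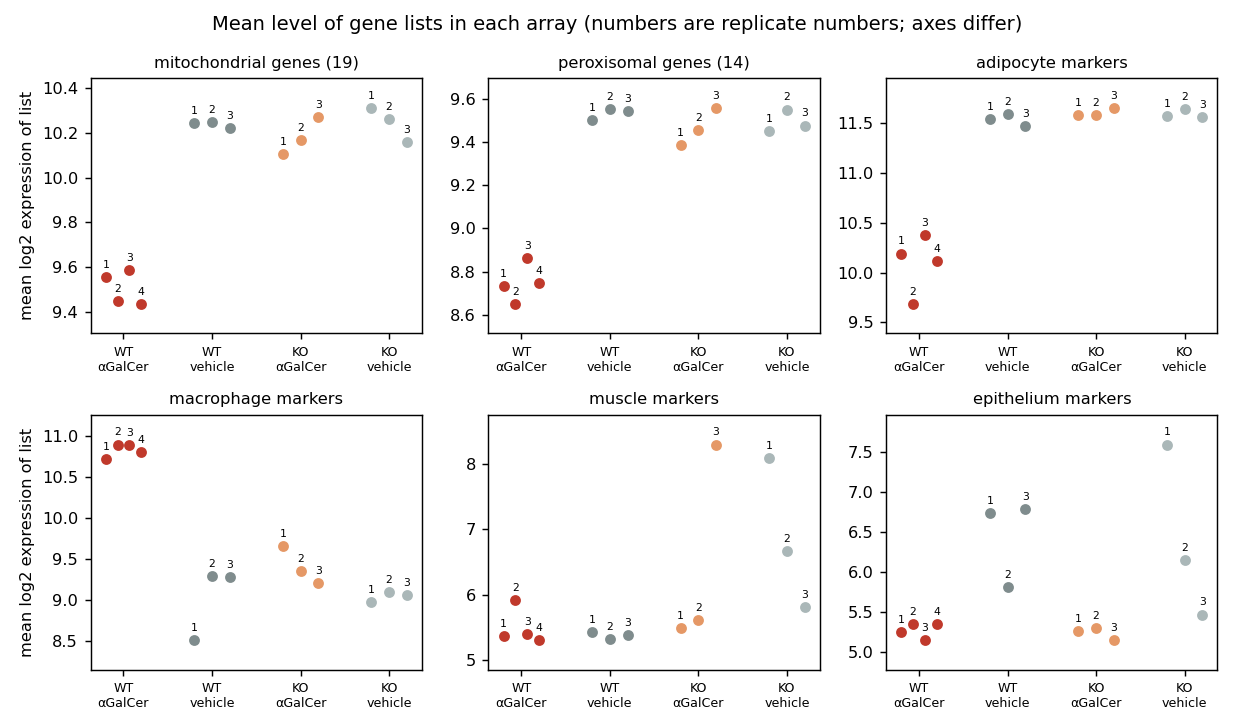
Mean log2 expression (vertical axis, a range of its own in each panel) of 6 gene lists in every array, labelled with replicate numbers, by group. The mitochondrial, peroxisomal and adipocyte lists are lowest in the 4 WT αGalCer arrays and the macrophage list is highest there, while muscle genes are highest in KO αGalCer replicate 3 and KO vehicle replicate 1 and epithelium genes in KO vehicle replicate 1.

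In KO fat, limma called 0 of the 33 genes after αGalCer, and 0% of all genes tested. At an unadjusted p under 0.05 there were 0 of the 33 and 1281 of all 18818. Changes ran from -0.23 ± 0.11 for Echs1 to 0.11 ± 0.15 for Crot, with a median of -0.04. The 95% intervals of the 33 genes lay between -0.48 (Acox3) and 0.43 (Crot), and each of them included 0. Acadm had 11.32, 11.39 and 11.61 in KO αGalCer fat, against 11.29, 11.50 and 11.48 in KO vehicle fat, a change of 0.02 ± 0.11. Ehhadh had 8.06, 8.47 and 8.62 in KO αGalCer fat, against 8.45, 8.51 and 8.20 in KO vehicle fat, where one group spans the other. Hadh had 12.05, 12.16 and 12.25 in KO αGalCer fat, against 12.22, 12.24 and 12.19 in KO vehicle fat, a change of -0.06 ± 0.08. Only Eci2 had groups that did not overlap, lower after αGalCer, where 6.04% of all genes did so. Without the muscle-high arrays, which leaves 2 KO αGalCer arrays and 1 KO vehicle array, and without the epithelium-high arrays, 0 of the 33 were called. Fits this small can miss changes, so these counts of 0 say nothing about stability.

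The effect of αGalCer in WT fat minus that in KO fat tests whether the response depended on the genotype. It was called lower in 25 of the 33 genes and higher in 1, where 14.3% of all genes were lower and 13.9% higher, and its median was -0.75. The difference was largest for Ehhadh (-1.73 ± 0.23, SE, adjusted p = 0.000138), Acadm (-1.50 ± 0.15, adjusted p = 1.88e-05), Abcd2 (-1.23 ± 0.22, adjusted p = 0.000929) and Hadh (-1.19 ± 0.10, adjusted p = 9.62e-06). It was 2-fold or more in 7 genes, against 6.65% of all genes in this direction. For Cpt1a it was 0.39 ± 0.13 (adjusted p = 0.0384), with changes of 0.24 in WT and -0.15 in KO fat, and this call was lost under 12 of 24 other settings, 8 of which left out 1 array. Those arrays were WT αGalCer replicates 2 and 3, WT vehicle replicates 2 and 3, KO αGalCer replicates 2 and 3, and KO vehicle replicates 1 and 2. By role, 7 of 8 core enzymes, 3 of 3 electron transfer genes, 2 of 3 auxiliary enzymes, 4 of 6 peroxisomal enzymes, 2 of 2 transporters and 4 of 6 peroxins were lower, and so were Cpt2, Crat and Acot2.

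For the other 7 genes the difference of effects was not called, so a fall in WT fat is not shown to differ from that in KO fat for them. Acaa2 missed narrowly (-0.41 ± 0.14, adjusted p = 0.0521) and was called under 5 of 24 other settings. These were without WT αGalCer replicate 3, without KO vehicle replicate 1, without dim genes, after a second quantile normalization and with array weights. Eci2 had -0.27 (adjusted p = 0.0854) and Pex5 -0.25 (adjusted p = 0.243). Both were called with array weights, and also without KO vehicle replicate 1, the array high in muscle and epithelium genes. Pex7 had -0.20 (adjusted p = 0.322), Slc25a20 -0.10 (adjusted p = 0.731), Crot -0.24 (adjusted p = 0.449) and Acox3 0.03 (adjusted p = 0.961). Without the muscle-high arrays, and likewise without the epithelium-high arrays, 24 genes were lower and 0 higher: the difference for Etfdh (-0.58, adjusted p = 0.00776) was then not called (-0.55, adjusted p = 0.0760, and -0.51, adjusted p = 0.0807). The first of these fits keeps 1 KO vehicle array and the second 1 WT vehicle array, each assumed to vary like the other groups. Without WT vehicle replicate 3, the array high in epididymis and testis genes, 25 were lower and 0 higher.

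The genotypes were also compared after each injection, in contrasts that share their arrays with those above. After αGalCer, 28 of the 33 genes were called higher and 1 lower in KO than in WT fat, where 21.9% of all genes were higher and 19.2% lower, with a median of 0.72. Ehhadh averaged 8.38 ± 0.29 in KO αGalCer fat and 6.76 ± 0.27 in WT αGalCer fat (SD, n = 3 and n = 4), a difference of 1.62 ± 0.16 (SE, adjusted p = 3.42e-06). Acadm was higher by 1.45 ± 0.10, Abcd2 by 1.39 ± 0.15 and Hadh by 1.26 ± 0.07. Cpt1a was lower in KO fat, with 10.38, 10.29 and 10.18 in KO αGalCer fat, against 10.71, 10.88, 10.83 and 10.59 in WT αGalCer fat. These groups did not overlap, and the difference was -0.47 ± 0.09 (adjusted p = 0.000772). Eci2 was higher by 0.21 ± 0.07 (adjusted p = 0.0369), a call that 11 of 24 other settings lost, 7 of them by leaving out 1 array (WT αGalCer replicates 1 and 4, WT vehicle replicates 2 and 3, or any KO αGalCer replicate). Slc25a20, Crot, Acox3 and Pex7 were not called. The epithelium-high arrays are all vehicle arrays, so leaving them out alters only the estimate of spread in this contrast. Without the muscle-high arrays 27 genes were higher and 1 lower, and without the epithelium-high arrays 28 were higher and 1 lower.

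After vehicle, limma called 0 of the 33 genes between KO and WT fat, where 0.112% of all genes were called. At an unadjusted p under 0.05 there were 2 of the 33, Etfb (-0.17) and Abcd3 (-0.22), both lower in KO fat, beside 1258 of all 18818, which is a similar share. Differences ran from -0.23 for Pex11a to 0.16. Without either set of 3 arrays, which leaves 1 vehicle array in KO or in WT fat, 0 were called. Hadha and Abcd3 were lower and Crat and Hadh higher in KO fat without overlap, against 3.80% and 7.38% of all genes.

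Other genes of the same and of neighbouring biology were counted from wider lists, and the plot of related lists gives their changes. The list of other fatty acid oxidation genes had 36 measured genes. It also held enzymes of branched-chain amino acid and propionate breakdown, such as Hibch, Ivd and Pccb, enzymes of ketone bodies, and Acacb. Of the 36, 22 were called lower and 2 higher in WT fat after αGalCer, with a median of -0.56. For each related list, the shares over all genes tested were 22.0% lower and 19.8% higher. Its fatty acid oxidation enzymes were not counted alone. The largest falls were in Hibch, an enzyme of valine breakdown (-1.93 ± 0.19, SE, adjusted p = 4.13e-06), and Acacb, the carboxylase that makes the malonyl-CoA that restrains Cpt1 (-1.83 ± 0.19, adjusted p = 6.42e-06). Acacb averaged 7.71 ± 0.34 in WT αGalCer fat and 9.53 ± 0.15 in WT vehicle fat (SD, n = 4 and n = 3). The 2 genes called higher activate fatty acids to acyl-CoA: Acsl5 rose by 1.09 ± 0.08 (adjusted p = 5.22e-07) and Acsl4 by 0.94 ± 0.23 (adjusted p = 0.00488). Acsl5 averaged 9.45 ± 0.06 in WT αGalCer fat and 8.36 ± 0.16 in WT vehicle fat. Of 34 other peroxisome genes, 21 were called lower and 3 higher, with a median of -0.47. Ddo, D-aspartate oxidase, changed by -2.50 ± 0.23 (adjusted p = 1.73e-06), while Agps, which makes ether lipids, rose by 0.96 ± 0.19 (adjusted p = 0.0013) and Xdh, xanthine dehydrogenase, by 0.47 ± 0.08 (adjusted p = 0.000404).

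**Figure D4:**
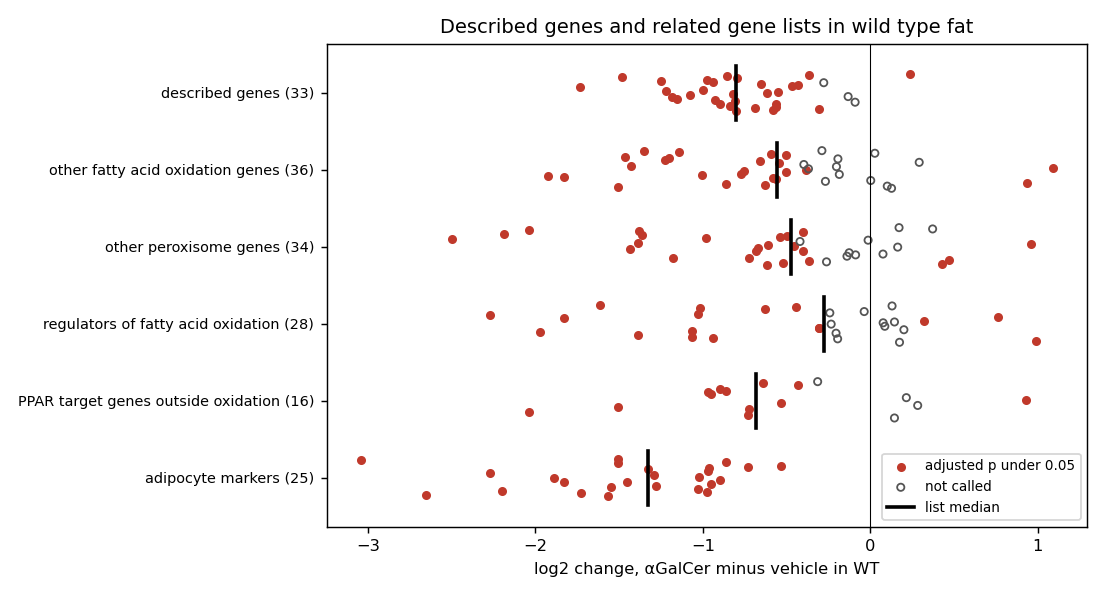
Log2 change after αGalCer in WT fat (horizontal axis) of every measured gene (points) in the set of 33 and in 5 related lists (vertical axis), filled where called at an adjusted p under 0.05, with a bar at the list median. The medians run from -1.33 for adipocyte genes to -0.27 for regulators, with -0.80 for the 33 genes.

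Regulators of fatty acid oxidation changed in both directions. Of 28 measured, 14 were called lower and 3 higher in WT fat, with a median of -0.27. Lpin1, a phosphatase that also acts as a coactivator of PPARα in liver, changed by -2.27 ± 0.15 (SE, adjusted p = 2.16e-07). Lpin1 is also an adipocyte marker here. Ppargc1a, which encodes PGC-1α, averaged 5.75 ± 0.34 in WT αGalCer fat and 7.73 ± 0.19 in WT vehicle fat (SD, n = 4 and n = 3), a change of -1.98 ± 0.19 (adjusted p = 3.28e-06), and 7.46 ± 0.37 in KO αGalCer fat and 7.91 ± 0.09 in KO vehicle fat (SD, n = 3 each), a change of -0.45 ± 0.21 that was not called. Its relatives Pprc1 and Ppargc1b rose by 0.99 ± 0.16 (adjusted p = 0.000258) and 0.76 ± 0.15 (adjusted p = 0.000825). The 3 coactivators of the family thus did not move one way. Ppara averaged 6.24 ± 0.17 in WT αGalCer fat and 7.85 ± 0.10 in WT vehicle fat, a change of -1.61 ± 0.12 (adjusted p = 4.39e-07). Pparg, which is also an adipocyte marker here, changed by -1.03 ± 0.10 (adjusted p = 4.38e-06). The difference of effects between WT and KO fat was called for Ppara (-1.53, adjusted p = 5.39e-05), Pparg (-1.07, adjusted p = 0.000198) and Ppargc1a (-1.53, adjusted p = 0.00129). Esrra, the receptor ERRα that works with PGC-1α, was not called (0.09 ± 0.11, adjusted p = 0.584).

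PPAR target genes with roles outside oxidation were called lower in 11 of 16 and higher in 1, with a median of -0.68. Fabp4, Cd36, Lpl, Cidea, Cidec, Gpd1 and Pnpla2 of this list are also adipocyte markers here. The falls of these genes were thus counted in both lists. Vnn1, a pantetheinase, changed by -2.04 ± 0.26 (SE, adjusted p = 2.9e-05) and Gpd1, glycerol-3-phosphate dehydrogenase, by -1.51 ± 0.13 (adjusted p = 1.14e-06). Plin2, a coat protein of lipid droplets, was the one called higher (0.93 ± 0.09, adjusted p = 2.21e-06). In KO fat 0 genes of these 4 lists were called, and 0% of all genes tested. Over all genes tested, the difference of effects was called lower in 14.3% and higher in 13.9%. The difference of effects was called lower in 17 and higher in 1 of the 36 genes of the wider oxidation list. It was lower in 11 and higher in 1 of the 34 other peroxisome genes. Of the 28 regulators it was lower in 10 and higher in 2, and of the 16 PPAR targets lower in 10 and higher in 1.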

How the data were processed

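RNA from epididymal fat was measured on 13 Affymetrix arrays in 4 groups. The authors deposited log2 expression values per probe set, made with RMA (background correction, quantile normalization, summary per probe set) per the submitters' processing notes. Software version, chip description and build: not given in the sources used here. Detection calls and scan batches were not used here, and RMA compresses the changes of dim probe sets. The number of arrays limits the precision.

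The platform annotation gave probe sets their names, updated through the RefSeq table of GRCm38.p6. Of 35556 probe sets, 21218 carried exactly 1 symbol, which gave 18818 genes, and 1388 of these had more than 1 probe set. All genes were tested with limma (version 3.58.1, under R 4.3.3) on all 13 arrays, fitting group means, with eBayes, an intensity trend and 9 residual degrees of freedom. Tests were two-sided, with Benjamini-Hochberg adjustment over all genes and calls at an adjusted p under 0.05. All p-values in the text are limma's, and ± beside a change gives the standard error. Promoter windows were used only for the sequences and motif counts.

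The members and the lists were chosen with earlier results of these data known, so their counts and medians are descriptions. All members could be named, and from each related list the 2 largest called rises and falls in WT fat. Ppara, Pparg, Ppargc1a and Esrra were given whatever their p, and 1 further gene listed in that way is not reported here. Slc27a2, named by this rule, is given among the other observations. Marker lists gave the 2 largest and 2 smallest changes; Adipoq was added after its values were seen. The same fit was first tested on simulated data. The 24 alternatives covered the variance model, dim genes, normalization, array weights, the arrays in the fit, the replicate block and leaving out each array.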

Additional observations from a re-analysis of the deposited data

Results flagged for a closer look

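The effect of αGalCer differed between WT and KO fat, by limma's test of the difference itself, in 26 of the 33 genes. The values below are WT effect minus KO effect on the log2 scale, and all have an adjusted p under 0.05. In mitochondria the difference was -1.50 for Acadm, -1.19 for Hadh, -1.15 for Decr1, -1.12 for Cpt2, -1.0 for Eci1, -0.84 for Echs1, -0.75 for Etfa, -0.72 for Acads and -0.72 for Acot2. It was -0.62 for Etfb, -0.58 for Etfdh, -0.57 for Hadhb, -0.54 for Crat, -0.52 for Acadl and -0.42 for Hadha, and 0.39 for Cpt1a. In peroxisomes it was -1.73 for Ehhadh, -1.23 for Abcd2, -1.05 for Pex13, -0.91 for Pex19, -0.87 for Pex3, -0.87 for Cat, -0.85 for Abcd3, -0.84 for Phyh, -0.81 for Pex11a and -0.80 for Hsd17b4. The differences for Cpt1a and Etfdh are those that lost their call under some alternatives. In WT αGalCer fat, the only group with 4 arrays, 0 of 33 genes had an outlying array by Dixon's test at the 95% level. Groups of 3 arrays were not tested in this way.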

How the results depend on the processing

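Among 24 alternatives (13 of them leaving out 1 array), the direction of no called gene turned. Of the 33 genes, 30 kept their side of the threshold under every alternative for αGalCer in WT fat, 33 in KO fat, 28 for the difference of effects, 31 for KO against WT after αGalCer and 33 after vehicle. In KO fat and after vehicle 0 of the 33 genes were called, so the counts of 33 there say nothing about stability. Leaving out an array outside the groups compared kept the change and altered only the estimate of spread. Leaving out 1 array gave 28 to 30 genes lower and 0 to 1 higher in WT fat. It gave 25 to 28 lower and 0 to 1 higher in the difference of effects, and 27 to 28 higher in KO fat after αGalCer. The other alternatives gave 29 to 30, 24 to 28 and 27 to 29. Cpt1a, the 1 gene higher in WT fat, gave a count of 0 with no intensity trend, robust eBayes, arrays centred on their medians, only the groups compared, without the 3 muscle-high KO arrays and without the 3 epithelium-high vehicle arrays. In the difference of effects the count higher was 0 with no trend, with centred arrays and without either set of 3 arrays. The cause was not tested. Over all genes, the count called in KO fat was 0, but 322 with array weights, 2 without the muscle-high arrays, 1 without the epithelium-high arrays and 0 to 2 when 1 array was left out. For KO against WT after vehicle it was 21, but 169 with array weights, 4 with only the groups compared, 1 without the muscle-high and 4 without the epithelium-high arrays, and 11 to 35 when 1 array was left out (11 without WT vehicle replicate 3). In the difference of effects, 1680 genes were called higher without the muscle-high arrays, against 2611. The exclusion of the epithelium-high arrays was chosen after seeing the data. Replicate numbers recur across groups. Over 18 same-numbered pairs, the correlation of deviations from the group means ran from -0.20 to 0.48, with 5 over 0.1. Its median was 0.022, against 0.018 for pairs of other numbers. Between WT vehicle and KO vehicle it was 0.48 for replicate 1, 0.48 for replicate 2 and -0.11 for replicate 3. Among replicate 1 arrays it was also 0.30 between WT vehicle and WT αGalCer, and 0.38 between WT αGalCer and KO vehicle. For KO αGalCer replicate 1 it was -0.20 with WT vehicle, 0.10 with WT αGalCer and -0.006 with KO vehicle replicate 1. It was also 0.46 between WT vehicle replicate 2 and KO vehicle replicate 3. Whether same-numbered arrays share a batch was not tested. With a replicate block 29 genes were lower and 1 higher in WT fat, 25 were lower and 1 higher in the difference of effects, and 27 were higher in KO fat after αGalCer, where the call of Eci2 was lost (0.17, adjusted p = 0.111). Signals near background limit dim probe sets.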

Other observations

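Slc27a2, an acyl-CoA synthetase of peroxisomes and the endoplasmic reticulum, was lower after αGalCer in both genotypes, but only the change in WT fat was called. It averaged 4.71 ± 0.04 in WT αGalCer fat and 6.89 ± 0.69 in WT vehicle fat (SD, n = 4 and n = 3), a change of -2.19 ± 0.51 (SE, adjusted p = 0.00347). In KO fat it averaged 4.55 ± 0.11 after αGalCer and 6.69 ± 1.49 after vehicle (SD, n = 3 each), a change of -2.14 ± 0.54 (adjusted p = 0.720). The difference of these effects was not called (-0.05, adjusted p = 0.976). Epithelium genes were also highest in vehicle arrays, and their part in this gene's values was not tested. The second probe set of Acox3 was dim, with 4.05 ± 0.20 in WT αGalCer fat and 4.03 ± 0.08 in WT vehicle fat, and gave a difference of 0.02.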
